A study of Zea mays with 22 samples.

Results

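The genes zmm16, ZAG1 and m28 encode maize MADS-box transcription factors, and each was represented by 1 probe on both array designs. They were found by symbol or synonym in the platform annotation, as 3 of 329 annotated genes, 3 of 5640 probes on the first design and 3 of 5760 on the second. The choice of these genes rests on earlier results of the same data. The gene zmm16 was chosen by its measured log2 ratio after 2 h of high UV-B, ZAG1 for its values after 8 h of high and 4 h of medium UV-B, and m28 for its value after 8 h of low UV-B. Every value from those regimes is therefore given as a description, with no test.

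MADS-box proteins bind DNA as dimers and larger complexes and are best known for setting organ identity in flowers. In the textbook scheme, B-class proteins act with A- or C-class proteins in the middle whorls, C-class proteins specify the reproductive organs and end the growth of the floral meristem, and SEPALLATA proteins join these complexes as partners. The gene zmm16 (gene ID 542019, also sts1) belongs to the PISTILLATA-like B class and acts in stamens and lodicules. The gene ZAG1 (542244) is an AGAMOUS-like C-class gene needed for determinacy of the floral meristem in the ear. The gene m28 (542045, also MADS67) lies in the APETALA1/FRUITFULL-like clade, whose members act in the switch to flowering and in meristem identity.

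The study measured maize RNA on 22 spotted 2-colour arrays, each carrying a UV-B treated sample and its control, or leaf from a CA bag and leaf from a PE bag. The second set held 4 regimes of UV-B against untreated controls on 2 arrays each, of which 2 lasted 8 h (one high, one low) and the others 2 h (high) and 4 h (medium), with neither the intensity nor the tissue given. The first set of 14 arrays held seedling leaf, adult leaf, root, tassel and immature ear after 8 h of UV-B, adult leaves of exposed plants in a CA bag against a PE bag (films known as cellulose acetate, which passes UV-B, and polyester, which absorbs it), and, on 1 array, leaves that were PE covered on treated and on control plants. Plant age is not stated beyond seedling and adult. The labels do not say whether the arrays of a group came from separate plants. The p-values therefore measure the spread between arrays, estimated largely over all probes, and that spread may be technical.

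All values below are on the log2 scale after each array was centred on its median. A positive value is taken to mean more RNA in the UV-B sample or in the CA sample, which is an assumption because no direction is recorded. The second array of each pair has its channels swapped and was taken as already turned. A ratio holds no level, so neither the abundance of these genes nor the labelled tissue could be checked, and fewer cells of a type cannot be told apart from less RNA per cell. In the first set several columns repeated 1 profile, which left 9 distinct profiles of 14 arrays. One of these was deposited both as tassel array 1 and as immature ear array 1, so which organ it came from is not settled. Arrays agreed well in some pairs and poorly in others. Computed over probes, which share their arrays and are no replicates, the Pearson correlation of the 2 arrays was 0.80 at 2 h high, 0.18 at 8 h high, 0.23 at 4 h medium and -0.36 at 8 h low.

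The gene zmm16 stood far above its control at 2 h high. It measured 1.75 and 1.94 on the 2 arrays, a mean of 1.84 with an SE of 0.138 from limma (n = 2 arrays), or 3.58-fold. The 3 spots of the probe lay close together, with an SD of 0.04 and 0.06. On array 1, 8 of 5314 probes were higher, and on array 2, 2 of 5401 were higher. In this regime 13.7% of 5199 probes passed limma's adjusted p threshold of 0.05. Nothing is read from the place of zmm16 among them, because this value chose the gene.

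In the other 3 regimes zmm16 was closer to the array median. At 4 h medium it measured -0.03 and 0.23, a mean of 0.10 (95% interval -0.18 to 0.38, adjusted p = 0.995, limma). At 8 h low it measured 0.56 and 0.26, positive on both arrays, with a mean of 0.41 (95% interval 0.13 to 0.69, adjusted p = 0.152, limma). On array 1 of that regime 23 of 5356 probes were higher, and on array 2, 1325 of 4938. At 8 h high it measured -0.10 and -0.25, negative on both, with a mean of -0.17 (95% interval -0.45 to 0.10, adjusted p = 0.79, limma). None of these passed the threshold. The background share of called probes was 3.78% at 8 h high, 0.303% at 4 h medium and 0.387% at 8 h low. With the median of each print block set to 0, the 8 h low value was 0.54 and passed (adjusted p = 0.0275, limma), on a block whose median was 0.06 and -0.32 on the 2 arrays.

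The order of zmm16 across the regimes was therefore 2 h high, 8 h low, 4 h medium and 8 h high. The 2 h high value lay above the others by 1.74 over 4 h medium, 1.43 over 8 h low and 2.02 over 8 h high, and both of its arrays were above all 6 other regime arrays. These differences and this separation contain the regime that chose the gene and were not tested. The share of all probes that separate in this way was not counted. Among the remaining regimes, 8 h low minus 8 h high was 0.58 (95% interval 0.19 to 0.97, adjusted p = 0.179, limma), where 0.636% of probes were called. With block medians at 0 that difference was 0.71 and passed (adjusted p = 0.0193, limma). The 4 h medium value differed from 8 h low by -0.31 (95% interval -0.70 to 0.09, adjusted p = 0.998, limma) and from 8 h high by 0.28 (95% interval -0.12 to 0.67, adjusted p = 0.983, limma). The background share in these 2 contrasts was 0% (of 4867 probes) and 0.505%.

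**Figure D1:**
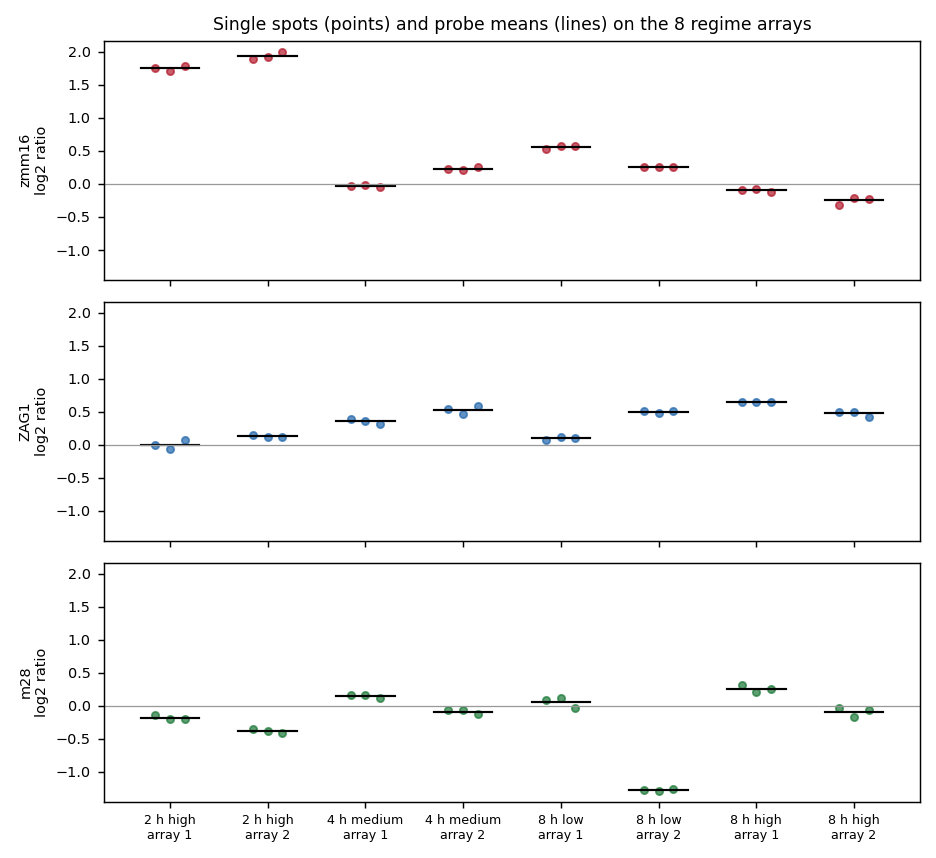
Log2 ratios (vertical axis, array median at 0) of zmm16, ZAG1 and m28 on the 8 regime arrays (horizontal axis), with points for single spots and lines for probe means. The zmm16 spots stand between 1.7 and 2.0 at 2 h high, ZAG1 is at or above 0 on every array by its probe mean, and m28 is far from 0 on 8 h low array 2 at -1.27.

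The gene ZAG1 was above 0 on all 8 regime arrays, from 0.01 to 0.65 with a median of 0.41. At 8 h high it measured 0.65 and 0.47, a mean of 0.56 with an SE of 0.137 (limma, n = 2 arrays), or 1.48-fold. At 4 h medium it measured 0.36 and 0.53, a mean of 0.44 with an SE of 0.137, or 1.36-fold. These 2 regimes chose the gene. At 8 h high the fit gave 0.36 without array 1 and 0.76 without array 2. Such a fit shifts the array that is left by a channel orientation term taken from the other regimes. Both values therefore lie outside the measured ones.

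In the regimes that did not choose it, ZAG1 did not pass the threshold. At 8 h low it measured 0.10 and 0.50, a mean of 0.30 (95% interval 0.03 to 0.58, adjusted p = 0.281, limma). The arrays lay 0.40 apart, close to the median gap of 0.39 over all probes in that regime. Without 8 h low array 1 the value was 0.48 and passed (adjusted p = 0.0489, limma), and without array 2 it was 0.13 and did not. At 2 h high it measured 0.01 and 0.13, a mean of 0.07 (95% interval -0.21 to 0.34, adjusted p = 0.812, limma).

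Ordered by its mean, ZAG1 ran from 8 h high through 4 h medium and 8 h low to 2 h high, so the regime that was highest for zmm16 was the lowest for ZAG1. Both orders rest on the reading of the swapped arrays. With these turned, ZAG1 was at 0.087 at 8 h high, -0.064 at 2 h high, -0.088 at 4 h medium and -0.20 at 8 h low, while zmm16 was at 0.15 at 8 h low, 0.077 at 8 h high, -0.10 at 2 h high and -0.13 at 4 h medium. The means of 8 h high and 4 h medium were 0.12 apart, less than the SE of their difference of 0.194. The difference between 2 h high and 8 h low, the 1 contrast free of the regimes that chose ZAG1, was -0.23 (95% interval -0.62 to 0.16, adjusted p = 0.591, limma), where 5.28% of probes were called. Across the 8 arrays the Pearson correlation of zmm16 and ZAG1 was -0.81 and the Spearman correlation -0.67. Without the 2 h high arrays they were -0.63 and -0.37 over 6 arrays. These are descriptions over arrays that come in pairs of 1 regime, and the regimes that chose both genes are among them.

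The gene m28 was low on 1 array of 1 regime. At 8 h low it measured 0.05 on array 1 and -1.27 on array 2, a mean of -0.61 with an SE of 0.15 (limma, n = 2 arrays). The SD of these 2 arrays was 0.94. limma draws the SE from all regime arrays and from the other probes, and it was 0.15 for m28 in every regime. The gap of 1.33 between the arrays was wider than that of 99.1% of probes. On array 2, 12 of 4938 probes were lower, while on array 1, 3358 of 5356 were lower. The spread over probes also differed, with an SD of 0.18 on array 1 and 0.43 on array 2. The probe printed just before m28 measured 0.57 and -1.41 on the same arrays, and the print block that holds both had a median of -0.32 on array 2. With block medians at 0, m28 at 4 h medium lay 0.48 above 8 h low, against 0.64 without this step. For 2 h high it lay 0.19 above 8 h low, against 0.33. The part of the neighbouring probe and of the block in the m28 value at 8 h low was not tested. The fit gave -1.14 without array 1 and -0.08 without array 2, and -0.28 after the arrays were scaled to a common spread. This is the value that chose the gene, and no call is read from it.

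In the other regimes m28 stayed within 0.4 of the array median. At 2 h high it measured -0.18 and -0.38, a mean of -0.28 (95% interval -0.58 to 0.02, adjusted p = 0.236, limma). That value passed with array weights, where the estimate was the same and the adjusted p = 0.000958 (limma). Without array 1 of that regime the fit gave -0.06, and without array 2 it gave -0.50. Both lie outside the measured values, because the fit shifts the array that is left by the channel orientation term from the other regimes. At 4 h medium it measured 0.15 and -0.09, a mean of 0.03 (adjusted p = 0.995, limma), and at 8 h high 0.26 and -0.09, a mean of 0.09 (adjusted p = 0.968, limma). Both 2 h high arrays were below both arrays of 4 h medium and of 8 h high, and the latter regimes overlapped. The share of all probes that separate in this way was not counted, so nothing is read from it. In all 4 regimes array 2 was below array 1.

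The 3 regimes that did not choose m28 did not differ past the threshold. The difference between 2 h high and 4 h medium was -0.31 (95% interval -0.74 to 0.12, adjusted p = 0.596, limma), against a background of 6.76% of probes called. It passed with array weights (adjusted p = 0.0197, limma) and when only these 2 regimes were fitted (adjusted p = 0.0246, limma). The difference between 2 h high and 8 h high was -0.37 (95% interval -0.79 to 0.06, adjusted p = 0.289, limma), against 11.4% of probes called. That between 4 h medium and 8 h high was -0.06 (95% interval -0.48 to 0.37, adjusted p = 0.996, limma).

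**Figure D2:**
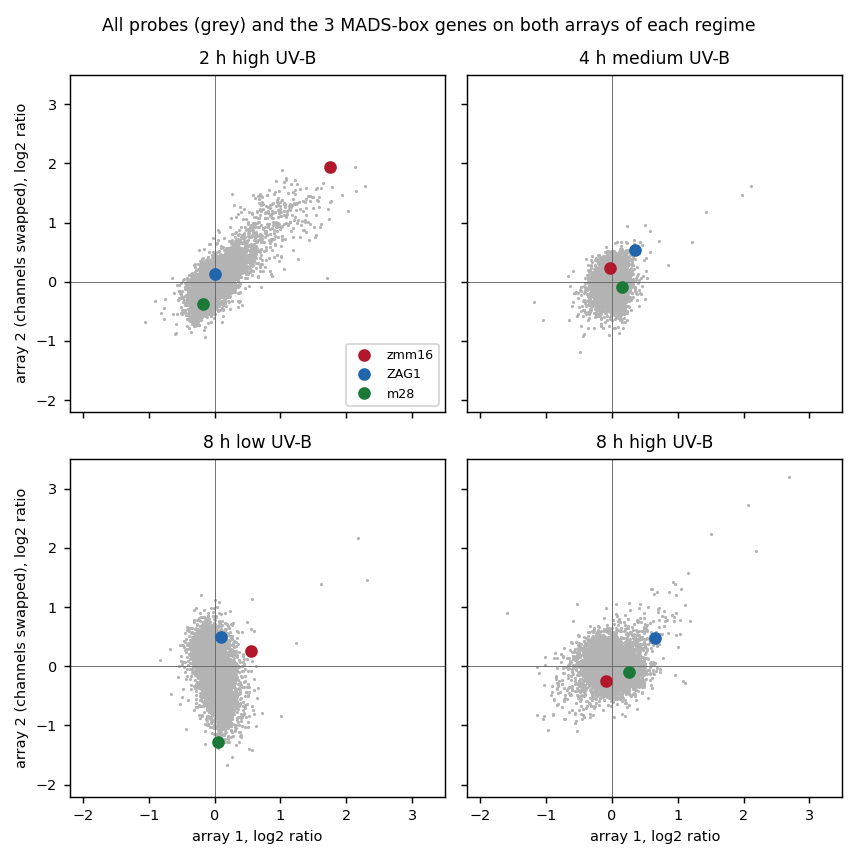
Log2 ratio on array 1 (horizontal axis) against array 2 of the same regime (vertical axis) for all probes with a value on both (grey points) and for the 3 MADS-box genes (coloured points). At 2 h high zmm16 lies at the upper end of a cloud that runs along the diagonal, and at 8 h low m28 lies at the lower edge of a cloud that is much taller than it is wide.

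Counted together, the 3 genes gave 8 tests in regimes that had not chosen them, of which 0 passed limma's adjusted threshold and 2 were under an unadjusted p of 0.05 (zmm16 and ZAG1 at 8 h low). Over all probes 0.303% to 13.7% passed in a regime. Of 7 differences between such regimes 0 passed and 1 was under an unadjusted p of 0.05, where 0% to 11.4% of all probes passed. At these shares a count of 0 among so few tests does not set the genes apart from other probes.

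Another 6 genes on the arrays were matched by the MADS-box list and help to place the 3. They were si1, the APETALA3-like B-class partner of zmm16, zap1 and m4 of the APETALA1/FRUITFULL-like clade that also holds m28, bde1 of the AGL6-like clade, the SEPALLATA-like zmm27, and M8, which the tables name by symbol only. None passed limma in any regime, which at the shares of all probes called is no result about these genes. At 2 h high 0 of 6 passed (2 under an unadjusted p of 0.05, against 13.7% of all probes called), with values from -0.37 to 0.23 and a median of -0.02, beside -0.01 over all probes. The lowest was si1 at -0.37 (SE 0.136, adjusted p = 0.0615, limma), which lay on the other side of 0 from zmm16. At 4 h medium 0 of 6 passed (0 under an unadjusted p of 0.05, against 0.303% of all probes called). All 6 were below 0, from -0.23 to -0.05, where 49.0% of all probes were above 0. Their shared direction was not tested.

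At 8 h low 0 of the 4 tested passed (1 under an unadjusted p of 0.05, against 0.387% of all probes called), with values from -0.30 to 0.18. M8 and bde1 had no value on array 2 there. The lowest was zap1, which measured 0.27 and -0.86 on the 2 arrays. Its pair ran the same way as that of m28, high on array 1 and low on array 2, and zap1 sits in the same print block. So does zmm16, which measured 0.56 and 0.26 on these arrays and was above 0 on both. At 8 h high 0 of 6 passed (0 under an unadjusted p of 0.05, against 3.78% of all probes called). Values ran from -0.17 to 0.14 with 5 of 6 above 0, beside 50.0% of all probes. This direction was not tested either. Of the wider list of meristem, flower and flowering-time regulators, 1 symbol, GT1, was annotated. The tables match it by symbol only and do not show that its probe is the regulator of that name. The probe measured -0.43 and -0.57 at 2 h high and fell by 0.50 (SE 0.136, adjusted p = 0.00761, limma), and it passed in no other regime. Over all probes 13.7% of 5199 were called at 2 h high, and 0.303% to 3.78% in the other regimes.

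**Figure D3:**
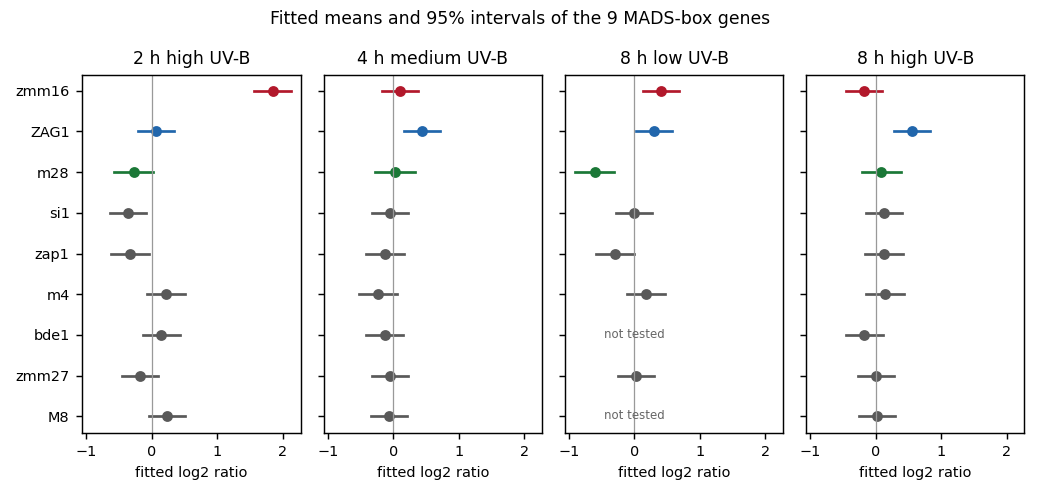
Fitted log2 ratios (horizontal axis, points) with 95% intervals (bars) of the 9 MADS-box genes (rows) in the 4 regimes (panels). The intervals of the 6 other genes, in grey, lie within about 0.7 of 0, while zmm16 stands at 1.84 at 2 h high, ZAG1 at 0.56 at 8 h high and m28 at -0.61 at 8 h low.

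The first set of arrays played no part in choosing the genes but measured them unevenly. The gene m28 had a value in all 9 distinct profiles, zmm16 in 6 and ZAG1 in 5. Adult leaf array 2, filled at 32.7% of spots, was blank for zmm16 and ZAG1. Direction is not settled here either. Adult leaf array 2 and immature ear array 2 share a channel orientation and correlated at -0.52 over probes, and seedling leaf, root, tassel and ear each have 1 profile deposited under both orientations.

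Over probes the 2 adult leaf arrays correlated at -0.18 and the 2 bag arrays at 0.58. In adult leaf after 8 h of UV-B, m28 measured 0.02 and -0.42, a mean of -0.20 (95% interval -0.66 to 0.25, adjusted p = 0.967, limma), where 1.58% of 1962 probes were called. With the swapped array turned the value was 0.22 (adjusted p = 0.579, limma). Between CA and PE bags it measured -0.14 and -0.10, a mean of -0.12 (95% interval -0.58 to 0.33, adjusted p = 0.999, limma), where 3.62% were called. With the swapped array turned that was -0.02. The 2 comparisons differed by -0.08 for m28 (adjusted p = 0.999, limma, where 2.96% were called). The gene zmm16 measured -0.13 on adult leaf array 1. Between the bags it measured -0.01 and 0.15, a mean of 0.07 (SE 0.154, adjusted p = 0.855, limma on that pair alone). ZAG1 measured 0.14 on adult leaf array 1, with spots that disagreed (SD 0.40), and was blank on both bag arrays.

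The single profiles have no test, and their signs are as deposited. In root all 3 genes were above 0, m28 at 0.82 (SD of 3 spots 0.05), zmm16 at 0.84 from 1 spot, and ZAG1 at 0.35 (SD of 3 spots 0.11). In PE-covered leaves m28 was at -0.71 (SD of 3 spots 0.08) and zmm16 at -0.50 (SD of 3 spots 0.11), while ZAG1 was at 0.47 (SD of 3 spots 0.05). If the root profile runs the other way, its 3 values change sign. In seedling leaf m28 was at 0.27 and ZAG1 at 0.07, and zmm16 was blank. The fuller of the 2 seedling columns gave zmm16 at -0.10, with spots that disagreed (SD 0.43). In the profile shared by tassel and ear, zmm16 was at -0.35, ZAG1 at 0.19 and m28 at 0.07, the last of which was -0.10 with block medians at 0. In the remaining immature ear profile m28 was at 0.21 and the other two were blank. The 6 other MADS-box genes ranged from -0.31 to 0.64 in root and from -0.52 to -0.06 in PE-covered leaf, each with 3 of 6 measured.

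**Figure D4:**
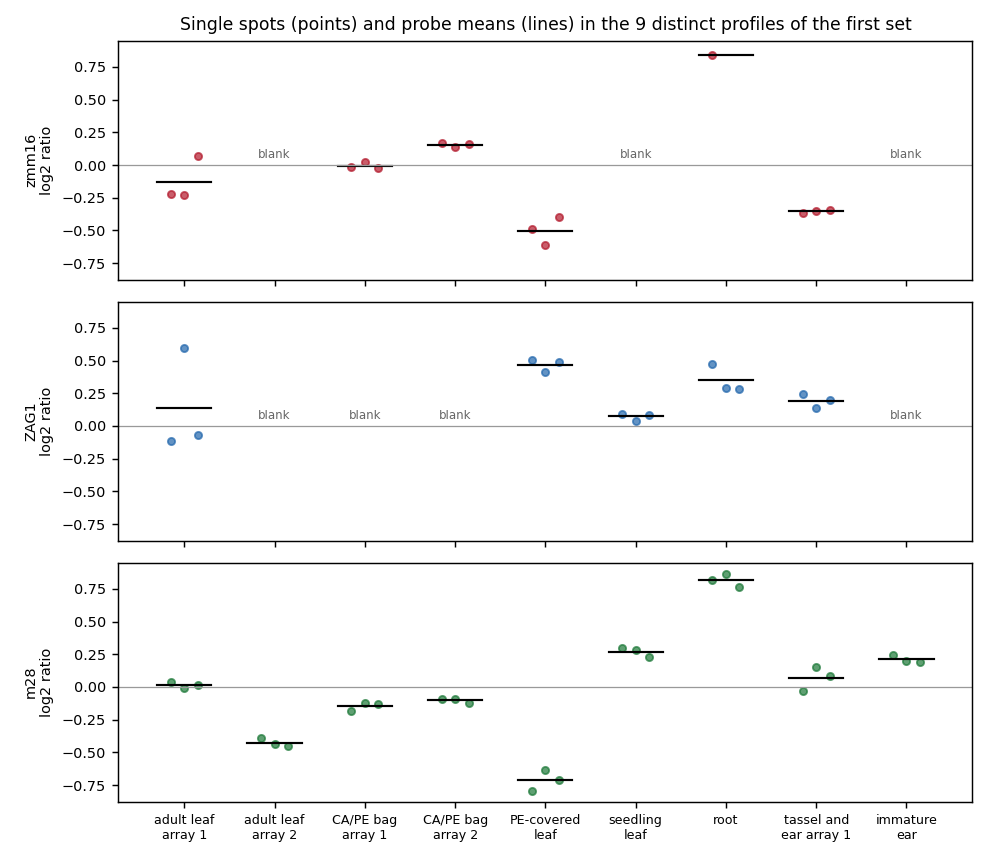
Log2 ratios (vertical axis, array median at 0) of zmm16, ZAG1 and m28 in the 9 distinct profiles of the first set (horizontal axis), with points for single spots, lines for probe means and the word blank where no spot had a value. The gene m28 runs from -0.71 in PE-covered leaf to 0.82 in root, and the zmm16 value in root is a single spot.

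Genes with 1 symbol whose values ran most like each member were listed by Pearson correlation, as a description. Over the 8 regime arrays, zmm16 was most like ypt1 (0.922), a small GTPase of the Rab family, glu1 (0.922), a beta-glucosidase, and PIP1-1 (0.921), a plasma membrane aquaporin. All 3 were high on both 2 h high arrays, ypt1 at 2.28 and 1.61, glu1 at 0.66 and 0.52, and PIP1-1 at 0.89 and 0.72. They are the nearest named genes only, since 102 of the 4727 probes compared, none of them with a single gene symbol, were more like zmm16 than ypt1 was.

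ZAG1 was most like DBB11 (0.947), LOC541901 (0.910) and the tonoplast aquaporin gene tip1 (0.812), each of them below 0 on both 2 h high arrays, where ZAG1 was 0.01 and 0.13. The gene m28 was most like HPL (0.978), a hydroperoxide lyase of oxylipin synthesis, vpp3 (0.968), a vacuolar proton pyrophosphatase, and PIP1-3 (0.958), another aquaporin. These likenesses follow 8 h low array 2, on which HPL measured -0.81, vpp3 -0.70 and PIP1-3 -0.94, while on array 1 they measured 0.17, 0.05 and 0.11.

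In the first set the likenesses involved other genes. Over 9 profiles m28 was most like H+-PPase (0.937), gpi (0.921) and LOC542641 (0.901). With the sign of the immature ear profile turned these correlations were 0.940, 0.917 and 0.910. With that of adult leaf array 2 turned they were 0.938, 0.964 and 0.895, which puts gpi first. Both readings were added after the data were seen. Over 6 profiles zmm16 was most like RP-P0 (0.972), a ribosomal stalk protein, LOC542657 (0.959) and M7 (0.951). Like M8, M7 is named by symbol only, but it was not on the MADS-box list. Whether it is a MADS-box gene is not settled. Over the 8 regime arrays the genes zmm16 and m28 correlated at -0.19 (Spearman -0.55). In the first set they correlated at 0.86 (Spearman 0.49) over the 6 profiles that hold both. The zmm16 correlations in this set include root, where zmm16 was highest at 0.84 from 1 spot and m28 was at 0.82. They were not computed without root or with its sign turned. ZAG1 had too few values there for the rule, which asked for at least 6.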

How the data were processed

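The authors deposited log2 ratios of the 2 channels in 2 value tables, and their earlier steps are not given in the sources used here. Neither intensities nor backgrounds were used. The base of the logarithm was read from the values, of which 12.1% to 39.3% of those repeated within an array matched log2 of ratios of small whole numbers, against at most 4.76% for other bases. Each 3 consecutive spots were averaged as 1 probe, and arrays were centred on their medians. Print blocks were inferred from spot order. Columns equal up to a constant (tolerance 1e-06) were used once. Gene names came from the platform annotation, of whose 329 genes 314 matched the reference gene table (Zm-B73-REFERENCE-NAM-5.0). No sequences or coordinates are given.

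limma 3.58.1 (R 4.3.3) fitted the 4 regimes together (3 residual and 44.43 prior degrees of freedom) and adult leaf with the bags (1 residual and infinite prior degrees of freedom), with a term for channel orientation. With an infinite prior all probes shared 1 residual variance. The intervals and p-values of that fit do not follow the gap between a gene's own arrays. Since array 2 always has the swapped channels, this term is also the block on replicate number. P-values were Benjamini-Hochberg adjusted over all probes. The fit was run on simulated arrays with independent noise and no channel or print block effects. That run checks the code and not how well the fit suits these arrays. Between 83.0% and 91.7% of spots had a value on the regime arrays and 32.7% to 99.2% in the first set, and the number of arrays limits the precision. The genes named are the 3 members, other genes on a MADS-box list, list regulators past the threshold and the 3 genes most like each member. Members and lists were chosen with earlier results of these data known. Alternatives covered the block, array weights, centring, scaling, spot summary, array orientation and leaving out each array.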

Additional observations from a re-analysis of the deposited data

Results flagged for a closer look

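The gene zmm16 lay on opposite sides of the array median in 2 regimes of high UV-B. Both 2 h high arrays were above 0, at 1.75 and 1.94, and both 8 h high arrays were below it, at -0.10 and -0.25. The means differed by 2.02 on the log2 scale. This difference was not tested, because the gene was chosen for its 2 h high value. The 8 h high mean of -0.17 was itself not past the threshold (95% interval -0.45 to 0.10).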

How the results depend on the processing

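With the sign of every swapped array turned, zmm16 at 2 h high became -0.10, its difference from 8 h high -0.17 and from 8 h low -0.25, m28 at 8 h low became 0.66, and ZAG1 became 0.087 at 8 h high and -0.088 at 4 h medium. That reading reverses the sign of the correlation between the arrays of a pair. As deposited it was 0.80 at 2 h high, 0.23 at 4 h medium, 0.18 at 8 h high and 0.58 between the bags. It was -0.36 at 8 h low and -0.18 in adult leaf, so there the turned arrays go together better. Scaling arrays to a common spread gave 1.65 for zmm16 at 2 h high and 0.60 for ZAG1 at 4 h medium. Block medians at 0 gave 0.54 for zmm16 at 8 h low, and array weights left m28 at 2 h high at -0.28 with a smaller adjusted p (0.000958, limma); the cause was not tested. Leaving out each array in turn gave 0.36 to 0.76 for ZAG1 at 8 h high and 0.13 to 0.48 at 8 h low, 0.21 to 0.61 for zmm16 at 8 h low, -0.07 to 0.28 at 4 h medium and -0.28 to -0.07 at 8 h high, and for m28 -1.14 to -0.08 at 8 h low, -0.50 to -0.06 at 2 h high, -0.17 to 0.23 at 4 h medium, -0.03 to 0.21 at 8 h high, -0.45 to 0.04 in adult leaf and -0.37 to 0.12 between the bags, the last 2 with no residual degrees of freedom and so no test. A fit that drops 1 array of a pair shifts the other by the channel orientation term, so some of these values lie outside the measured pair. With no replicate block the means were the same. They were 1.84 for zmm16 at 2 h high, 0.56 for ZAG1 at 8 h high and -0.61 for m28 at 8 h low. These values chose the genes, so no call is read from them in any setting. For the last 2, the place relative to the threshold also varied with the setting. None of the values tested in the report changed side without the block. With 2 arrays a regime and ratios only, signal over background could not be assessed.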
